A study of Mus musculus with 60 samples.

Results

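Skeletal muscle of old mice in which 4 reprogramming factors had been induced was compared with skeletal muscle of young mice, in 7 of the 60 bulk RNA-seq libraries of the series. The 3 induced libraries came from mice aged 26 months (2 males, then 1 female as old 4F-induced 3), and the 4 young ones from mice aged 3 months (young 1 and 2 male, young 3 and 4 female). Another 3 muscle libraries, from old mice without treatment (26 months, 2 males and 1 female), give the level of untreated old muscle. Every mouse of the 3 groups, the young ones included, had the genotype 4F het; R26::rtTA het on C57BL/6, that is, 1 copy of a polycistronic cassette for Oct4, Sox2, Klf4 and c-Myc, and 1 of the doxycycline-dependent activator rtTA at the Rosa26 locus. Induced mice drank doxycycline at 1 mg/ml on 2 days of each week and plain water on the other 5, for 1 month from the age of 25 months, and the remaining mice received no drug. No group received doxycycline without carrying the cassette, and effects of the drug and of the factors cannot be told apart. The labels name neither the muscle that was taken nor the hour of collection.

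Brief, repeated expression of the Oct4, Sox2, Klf4 and c-Myc factors is known as partial reprogramming: pluripotency is not reached, and aged tissue is examined for a return toward a younger state. Ageing muscle is known for loss of fibre mass and of satellite cells (its stem cells), for unstable neuromuscular junctions and for a changed fuel use. The comparison with young muscle asks which transcripts still set the treated old tissue apart and which cannot be told from young levels or lie close to them.

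The 10 muscle libraries held 25.5 to 39.9 M counts (M stands for 1000000), and fast fibre genes made up 147000 to 200000 CPM of each, as the tissue label implies. CPM is a count scaled to a library of 1000000 counts, by TMM for single genes and by the library total for summed lists. A difference is the log2 fold change of an edgeR quasi-likelihood fit with group and sex, over all 10 libraries and 16851 genes, and a gene is called where its Benjamini-Hochberg adjusted p is under 0.05. Nothing in the labels says how the animals were housed or collected, so p-values measure the spread between these samples. In bulk tissue, fewer cells of a type and less RNA per cell cannot be told apart.

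The cassette factors were low in treated muscle at collection. Pou5f1 (Oct4) had 8, 0 and 1 counts in the induced libraries, 0 in each untreated old library, and 4, 2, 1 and 4 in the young ones. Sox2 had 9, 3 and 2 counts in the induced libraries, 0 in each untreated old one, and 2, 6, 4 and 3 in the young ones. Neither passed the filter on low counts, and the ranges of the induced and young libraries overlapped for each. Klf4 was at 10.7, 17.9 and 19.3 CPM in induced muscle and at 27.2, 40.5, 52.8 and 54.0 CPM in young muscle, with every induced library below every young one (log2 fold change -1.34 ± 0.22 SE, adjusted p = 0.0109). Untreated old muscle, at 24.3, 15.1 and 28.4 CPM of Klf4, was called lower than young as well (-0.84 ± 0.22, adjusted p = 0.0359). The difference in Klf4 between the old groups was not called (adjusted p = 0.812). Myc was at 4.30, 9.47 and 3.79 CPM against 10.2, 10.6, 11.5 and 9.61 CPM, and was not called (adjusted p = 0.147). Of 9 pluripotency genes, 2 could be tested. Lin28a, an RNA-binding protein of early development, was called lower in induced and in untreated old muscle, at a level under 0.6 CPM in every library. Sall4 was at 6.19, 3.19 and 2.47 CPM in induced against 2.00 to 3.01 CPM in young muscle and was not called.

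Some genes that record position along the body and limb separated all old from all young muscle, in treated and untreated mice alike. Those named here were picked after their values were seen, and they are given before the other results. Hoxa13, a gene of the outer limb, was at 9.25, 6.19 and 8.10 CPM in induced muscle, at 4.96, 6.52 and 6.17 CPM in untreated old muscle and at 0.452, 1.30, 0.162 and 0.313 CPM in young muscle. Tbx5, which marks the forelimb, stood at 0.103, 0.0394 and 0.215 CPM in induced muscle and at 2.95, 2.16, 3.05 and 1.64 CPM in young muscle, and reached at most 0.144 CPM in untreated old muscle. No old library overlapped a young one for either gene. The trunk gene Hoxc8 was at 0.404 to 0.631 CPM in induced and 4.87 to 12.1 CPM in young muscle. En1, a gene of the ventral limb, was at 0.825 to 1.69 against 3.16 to 5.81 CPM. Over the whole Hox family, 29 of 39 genes were tested, with 3 called higher and 4 lower in induced than in young muscle, and 9 of the 29 without overlap, which is no more than over all tested genes (36.3%). Of the 8 other position genes, Sim1 was called higher, Tbx5, En1, Six2 and Shox2 were called lower, and Tbx4, Pitx1 and Tbx15 were not called. Whether the same muscle was taken at each age is not stated, and the part of these genes' difference in the results that follow was not tested.

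**Figure D1:**
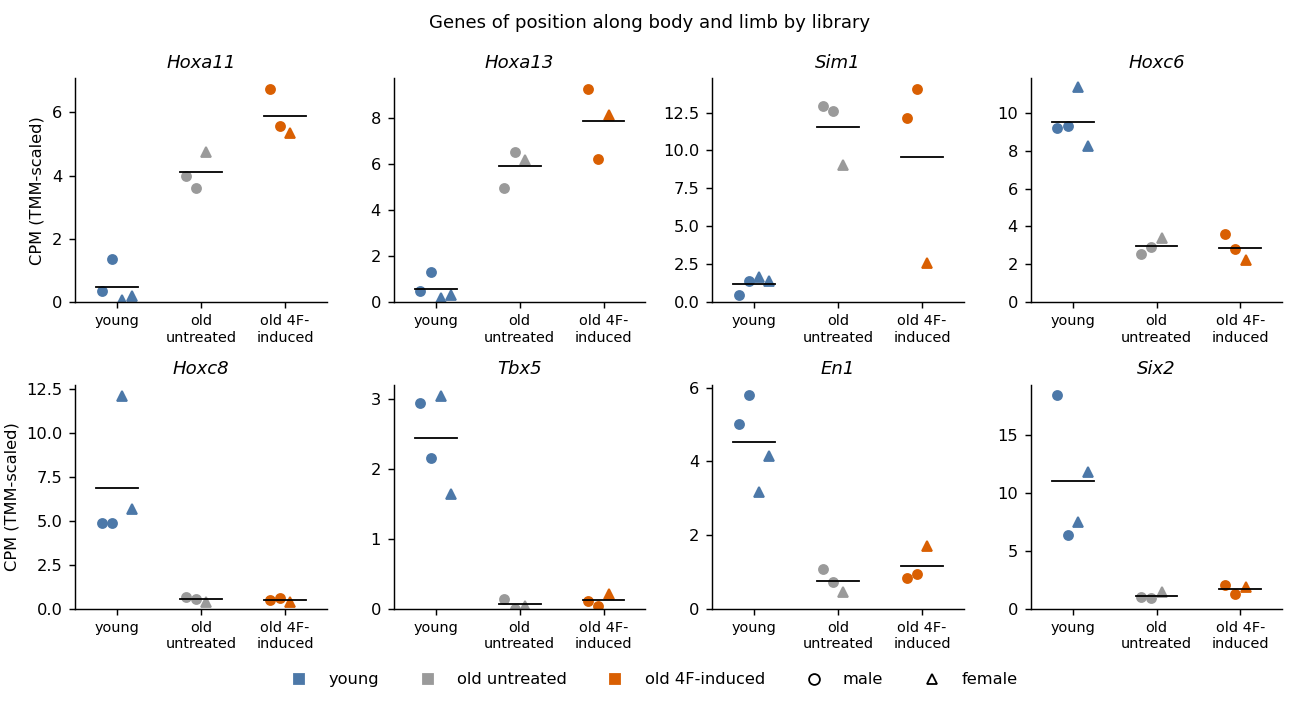
Level of 8 position genes (CPM after TMM scaling, linear axis) in each muscle library, with young, untreated old and induced old side by side, a bar at each group mean and triangles for females. The induced libraries sit with the untreated old ones, above the young for Hoxa11, Hoxa13 and Sim1 and below them for Hoxc6, Hoxc8, Tbx5, En1 and Six2. Position genes that were not called, such as Tbx4, Pitx1 and Tbx15, are not shown.

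A further 3 libraries stand apart. Young 1 and young 2 held transcripts of kidney, with the marker sum at 84.7 and 51.9 CPM against 0.774 and 1.06 CPM in the other young libraries and 0.464 to 1.00 CPM in induced muscle. Kap, an androgen-regulated kidney gene, was at 54.8 and 31.4 CPM in those 2 libraries. Young 3 held the most fat transcript: Plin1, which coats fat droplets, was at 523 CPM there and at 22.1 to 114 CPM in the other young libraries.

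Treated old muscle still differed from young muscle at 3205 of 16851 genes, which is 19% of those tested. Of these, 1641 were higher (9.74%) and 1564 lower (9.28%). Counts of called list members given below are to be read beside these shares. The median size of a called difference was 0.71 on the log2 scale, and 952 called genes (29.7%) differed by more than 1 unit. In 3006 of the called genes no induced library overlapped a young one, where 36.3% of all tested genes showed no overlap. At the other end, 4815 genes (28.6%) had a 95% interval of the fold change that lay wholly within 1.5-fold of young, 103 of them with a small called difference. That leaves 4712 genes that were not called and whose difference was bounded, and 8934 genes that were not called and whose interval reached past 1.5-fold, so that for them the data show neither a difference nor likeness.

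**Figure D2:**
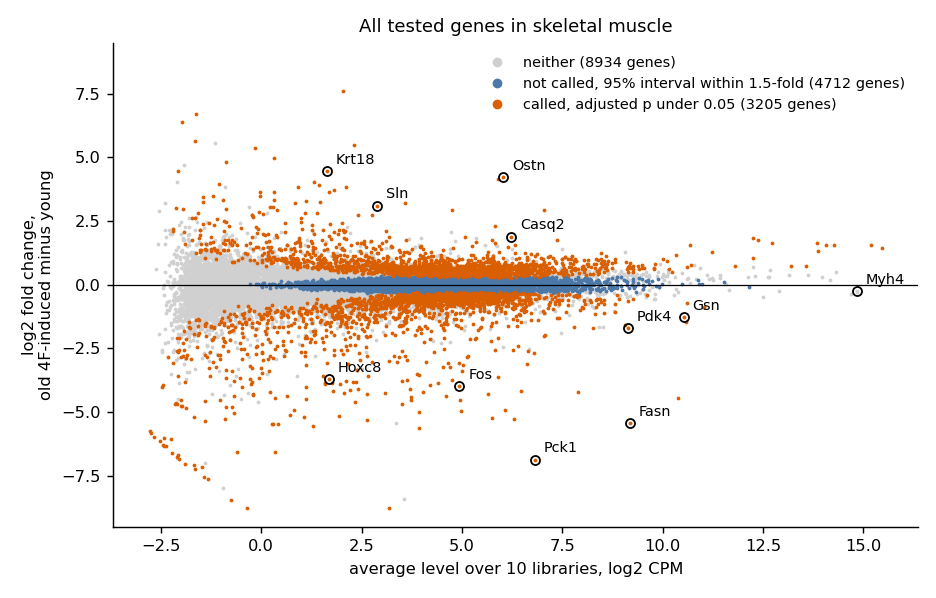
Average level over the 10 muscle libraries (log2 CPM) against the log2 fold change of induced old minus young, 1 point per tested gene. The 3205 called genes spread over the range of levels, the 4712 bounded genes lie mainly at middle and high levels, and 1 gene falls outside the vertical axis.

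The size of the called set depended on single treated libraries. It was 1087 without old 4F-induced 1 and 868 without old 4F-induced 2. Without old 4F-induced 3, the 1 treated female, it was 51 higher and 41 lower, with 3465 genes still bounded within 1.5-fold, and among males alone it was 0 higher and 3 lower. With no sex term and without old 4F-induced 3 the count was 1194. Without young 1 and 2 it was 608 higher and 573 lower. A core of 73 genes (45 higher, 28 lower) kept its call on leaving out each of the 7 induced and young libraries in turn. The 10 higher and 10 lower genes described below have the largest fold among core genes that passed further filters. These were an average log2 CPM of at least 1, no overlap between treated and young libraries, and a symbol that is not a predicted-gene name. S100a9 (3.30 on the log2 scale) was in the core but was left out because its libraries overlapped.

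In untreated old minus young, age and any difference in sampling cannot be told apart. That comparison gave 2705 called genes (16.1%), termed called with age. Of these, 1895 were also called in the same direction for treated old minus young: 1020 of the 1372 genes that were higher with age, and 875 of the 1333 that were lower. They make up 70.1% of the genes called with age and 59.1% of those called for treated old muscle. The 2 comparisons share the 4 young libraries, so an overlap arises from those alone to an unknown extent, and the counts describe where genes stand. Another 350 genes higher with age and 458 lower with age were not called for treated old muscle, and of these 60 and 65 were bounded within 1.5-fold of young. In the direct comparison of treated with untreated old muscle, which does not use the young libraries, 1 gene was called (0.00593%), with 1071 genes at an unadjusted p under 0.05. The called gene was Pdk4, and the next smallest adjusted p was 0.349. DESeq2 called 106 genes in this contrast. For almost every gene, then, a position nearer to or farther from young than untreated old muscle was not established by test.

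Pdk4, the kinase that closes pyruvate dehydrogenase and turns muscle from glucose to fat as fuel, was above young in untreated old and below young in treated muscle. It lies on chromosome 6 (5483351 to 5496309, GRCm38). Untreated old muscle held 948, 1576 and 980 CPM, young muscle 298, 494, 378 and 525 CPM, and treated old muscle 133, 131 and 125 CPM. The 3 groups did not overlap. Against young, the untreated old group was higher (1.45 ± 0.24 SE on the log2 scale, adjusted p = 0.0103) and the treated one lower (-1.72 ± 0.24, adjusted p = 0.009). The direct difference between the old groups was -3.17 ± 0.25 on the log2 scale (adjusted p = 0.0102). Its size stayed at -3.31 to -2.88 on leaving out any 1 library, but the call was lost without any 1 of the 3 induced libraries (adjusted p 0.0969 to 0.204). It was also lost with only the compared groups in the fit (adjusted p = 0.0667). The call against young was lost without old 4F-induced 3 (adjusted p = 0.0566). Pdk4 is known to rise in fasting and with glucocorticoids, and the feeding state at collection is not given in the labels. The other gene called in opposite directions in the 2 comparisons with young was 4930481A15Rik, at 3.37, 2.48 and 2.69 CPM in treated, 7.01 to 8.62 CPM in untreated old and 3.97 to 5.90 CPM in young muscle. Its difference between the old groups was -1.43 ± 0.20 and was not called (adjusted p = 0.349).

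Among genes still higher than in young muscle, Prkcz, an atypical protein kinase C on chromosome 4 (155260129 to 155361361, GRCm38), had the smallest adjusted p. It stood at 6.33, 5.33 and 7.42 CPM in treated muscle and at 1.62, 1.27, 1.51 and 1.75 CPM in young muscle, 4.27-fold higher (2.09 ± 0.16 SE, adjusted p = 0.00396). Untreated old muscle held 4.63, 5.01 and 7.10 CPM, within the treated range or just below it. Sln, sarcolipin, a micropeptide that uncouples the calcium pump of muscle, was at 13.7, 7.14 and 11.1 CPM in treated and at 0.957 to 1.51 CPM in young muscle (3.11 ± 0.38, adjusted p = 0.0064). Ostn, the secreted muscle factor musclin, reached 105, 52.4 and 254 CPM against 5.02 to 7.60 CPM in young muscle (4.23 ± 0.56, adjusted p = 0.00824). The keratin gene Krt18 was at 6.29, 6.47 and 7.34 CPM in treated muscle and at 0.213 to 0.339 CPM in young muscle (4.45 ± 0.57, adjusted p = 0.00657). The rule that picked these 4 genes required that no treated library overlap a young one.

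The other genes of highest fold in this core, under the filters given above, were Hoxa11os, Hoxa13, Prune2, Unc13c, Ogdhl and the mitochondrial cysteine tRNA gene mt-Tc. Unc13c, a relative of the synaptic priming factors, was at 7.61 to 10.9 CPM in treated and 1.04 to 2.48 CPM in young muscle. Ogdhl, a relative of a Krebs cycle enzyme, was at 4.57 to 6.15 against 0.783 to 1.80 CPM. All 10 genes of this group were also called higher in untreated old muscle, by 1.89 to 3.41 on the log2 scale, and the smallest adjusted p of a difference between the old groups was 0.812. Ranked instead by the smaller of the 2 fold changes against young, Ankrd1, Rrad, Rn7sk and Hoxa11 joined the list. That ranking did not require a core gene, and none of these belongs to the core. Ankrd1, a titin-associated protein of stretched and stressed muscle, was at 38.0, 180 and 107 CPM in treated, 20.6, 115 and 112 CPM in untreated old and 5.11 to 7.80 CPM in young muscle. Rrad, a small GTP-binding protein of muscle, was at 11.3 to 26.9 CPM in treated and 0.626 to 2.97 CPM in young muscle. The short non-coding RNA gene Rn7sk was called higher too, at 1.16 to 6.98 against 0.221 to 0.372 CPM.

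Under the same filters, core genes still lower than in young muscle were led, besides Hoxc8, Hoxc6 and En1, by Htra4, Wif1, Chac1, Col4a5, Tiam1, Mmrn1 and Cys1. Chac1, an enzyme that breaks down glutathione, was at 38.9, 37.0 and 15.6 CPM in treated and at 208, 224, 72.9 and 83.3 CPM in young muscle (-2.39 ± 0.26 SE, adjusted p = 0.00604). Col4a5, a chain of basement membrane collagen on chromosome X (141475385 to 141689234, GRCm38), was at 2.54, 2.64 and 3.15 CPM against 14.7, 9.95, 12.3 and 9.73 CPM (-2.05 ± 0.24, adjusted p = 0.00604). Absence of overlap was part of the rule that picked both genes, and for Col4a5 the treated libraries were also close to each other. Wif1, a secreted inhibitor of WNT, was at 0.275, 0.631 and 3.55 CPM in treated, 0.0841 to 0.380 CPM in untreated old and 3.73 to 12.9 CPM in young muscle, with old 4F-induced 3 just under the lowest young library. Tiam1, an activator of the RAC switch, was at 4.20 to 4.99 against 10.6 to 25.9 CPM, and Mmrn1, a protein of platelets and vessel walls, at 1.69 to 2.5 against 5.89 to 10.3 CPM. All 10 genes were called lower in untreated old muscle as well, at -4.69 to -1.44, and the smallest adjusted p between the old groups was 0.657.

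**Figure D3:**
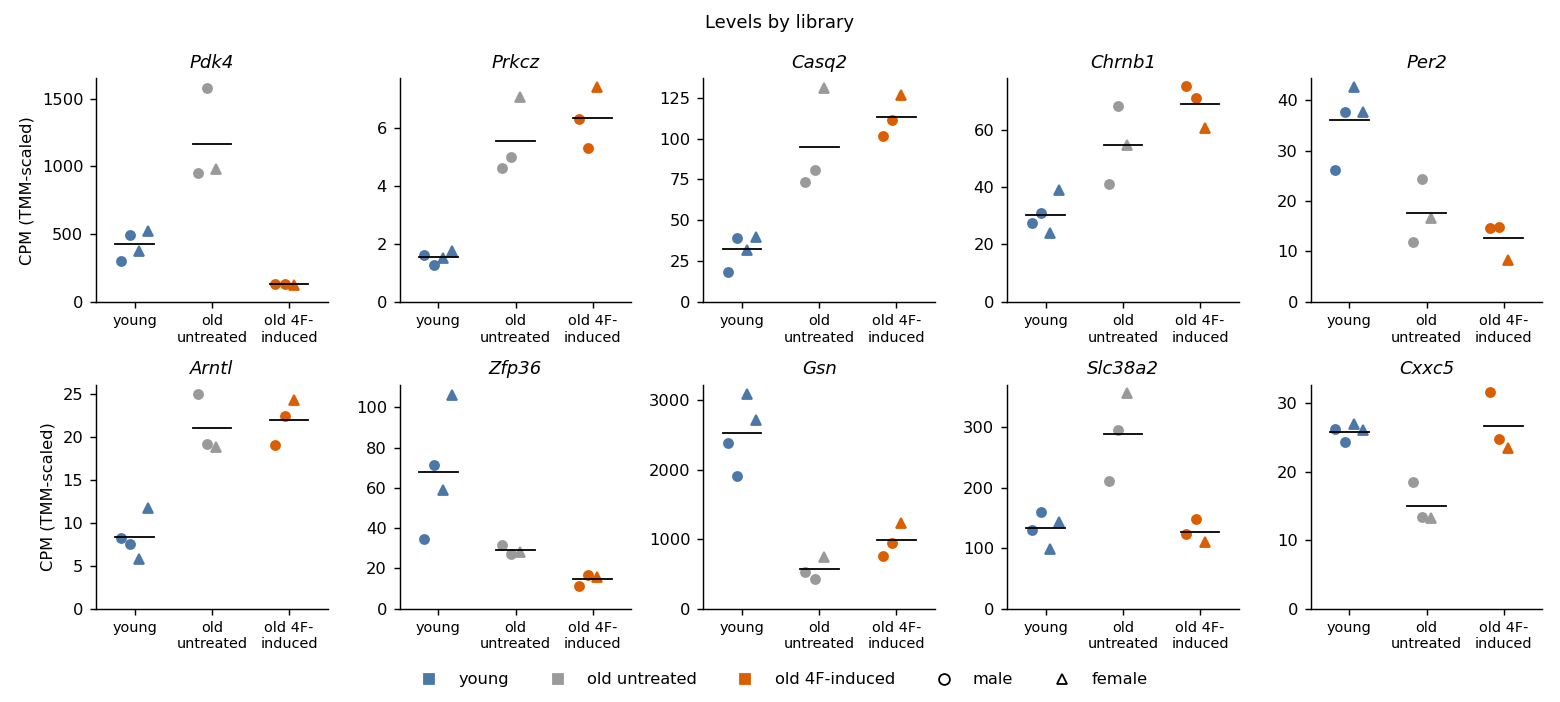
Level of 10 genes (CPM after TMM scaling, linear axes from 0) in each young, untreated old and induced old library, with a bar at the group mean and triangles for females. Induced libraries sit apart from young ones for the first 8 genes and around them for Slc38a2 and Cxxc5, and Pdk4 at 125 to 133 CPM lies below all young and untreated old libraries.

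A smaller set had been called with age but in treated muscle was bounded within 1.5-fold of young. The amino acid transporter gene Slc38a2 (SNAT2) was at 123, 148 and 111 CPM in treated, 212, 296 and 356 CPM in untreated old and 130, 159, 98.2 and 143 CPM in young muscle. The treated libraries lay inside the young range and below every untreated old library, with a difference from young of -0.07 ± 0.21 SE (95% interval -0.55 to 0.41). Slc43a3, a purine base transporter, was at 74.8, 55.9 and 43.6 CPM in treated against 36.0 to 58.6 CPM in young muscle and 93.1 to 132 CPM in untreated old muscle. Fas, the death receptor and p53 target, was at 6.43, 7.97 and 6.64 CPM in treated, 8.03 to 12.4 CPM in untreated old and 5.45 to 6.96 CPM in young muscle. The others named among genes called higher with age and bounded here were B4galt4, Vgll2, Slc9a3r2, Pqlc1 and the alcohol dehydrogenase gene Adh1. Their differences from young, with those of the former, ran from -0.16 to 0.26, where untreated old muscle stood at 0.67 to 1.12.

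In the opposite direction Cxxc5, a zinc finger regulator of WNT signalling, was at 31.7, 24.8 and 23.5 CPM in treated, 18.5, 13.4 and 13.2 CPM in untreated old and 24.3 to 26.9 CPM in young muscle (0.02 ± 0.15 SE against young, 95% interval -0.31 to 0.34). Sesn3, a FOXO target that restrains mTORC1, was at 20.9, 27.6 and 32.5 CPM in treated, 13.7 to 22.5 CPM in untreated old and 25.0 to 41.7 CPM in young muscle. Gli1, the readout gene of Hedgehog signalling, was at 1.89, 2.92 and 4.20 CPM against 2.10 to 3.86 CPM in young and 1.11 to 1.90 CPM in untreated old muscle. Bcl2, Klhl29, Tppp3, Kazald1 and Abca8b made up the 8. For all 16 genes the difference between treated and untreated old muscle had an unadjusted p under 0.05, but the rule that picked them favours that, and the smallest adjusted p among them was 0.527. The interval of 13 of the 16 reached past 1.5-fold when old 4F-induced 3 was left out. They are therefore genes near the young level in treated muscle, not genes shown to have moved there.

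Mitochondrial transcripts stayed above young. The 13 protein genes of mitochondrial DNA were all called higher, with a median of 1.57 on the log2 scale (all tested genes, -0.06). None had any overlap, where 36.3% of all tested genes showed none. Summed, they took 171000, 246000 and 191000 CPM of the treated libraries, 151000 to 204000 CPM of the untreated old and 71700 to 103000 CPM of the young ones. mt-Nd6, the complex I subunit read from the other strand, was at 7709 to 12230 CPM in treated and 2449 to 3616 CPM in young muscle (1.63 ± 0.24 SE, adjusted p = 0.009). Of 24 nuclear genes of oxidative phosphorylation 15 were called higher and 0 lower (median 0.79). Ndufb5 of complex I was at 463, 527 and 493 CPM against 177 to 272 CPM, and Cox6a2, the muscle form of a complex IV subunit, at 1365 to 1781 against 655 to 959 CPM. In untreated old muscle the counts were 13 of 13 and 15 of 24 as well. Among 13 regulators of mitochondrial biogenesis 0 were called higher and 1 lower, the coactivator gene Ppargc1b, at 6.02 to 6.75 in treated against 9.65 to 16.8 CPM in young muscle.

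Transcripts of protein turnover lay above young too. Among 17 tested ribosomal protein genes 10 were called higher and 0 lower (median 0.67), and among 17 proteasome genes 12 and 0 (median 0.56). Psmb2, a catalytic-core subunit of the proteasome, was at 120, 126 and 120 CPM in treated and 68.1 to 85.7 CPM in young muscle, and Rpl32 at 48.4, 38.9 and 35.7 against 21.1 to 28.3 CPM. The treated and young libraries did not overlap for 14 of the ribosomal and 15 of the proteasome genes, where 36.3% of all tested genes showed no overlap. Summed by library total, the ribosomal list overlapped, at 1140 to 1390 CPM in treated and 1010 to 1160 CPM in young muscle. The proteasome sums did not, at 1510 to 1630 and 1300 to 1440 CPM. Ribosomal protein genes have many processed copies, and how shared reads were counted is not given in the sources used here, so their levels are uncertain. Exon length moved with group. In the shortest 20% of protein-coding genes by exon length the median difference from young was 0.17, with 514 called higher and 112 lower, and in the longest 20% it was -0.19, with 105 and 370. Every old library lay above every young one in the median deviation of the shortest less the longest genes, treated at 0.08 to 0.23, untreated at -0.02 to 0.27 and young at -0.33 to -0.11. Its part in the ribosomal, proteasome and oxidative phosphorylation results, and in those of genes named elsewhere, higher or lower, was not tested. Without old 4F-induced 3, 3 of the 13 mitochondrial genes and 0 genes of the other 3 lists were called, with medians of 1.6, 0.85, 0.80 and 0.50.

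**Figure D4:**
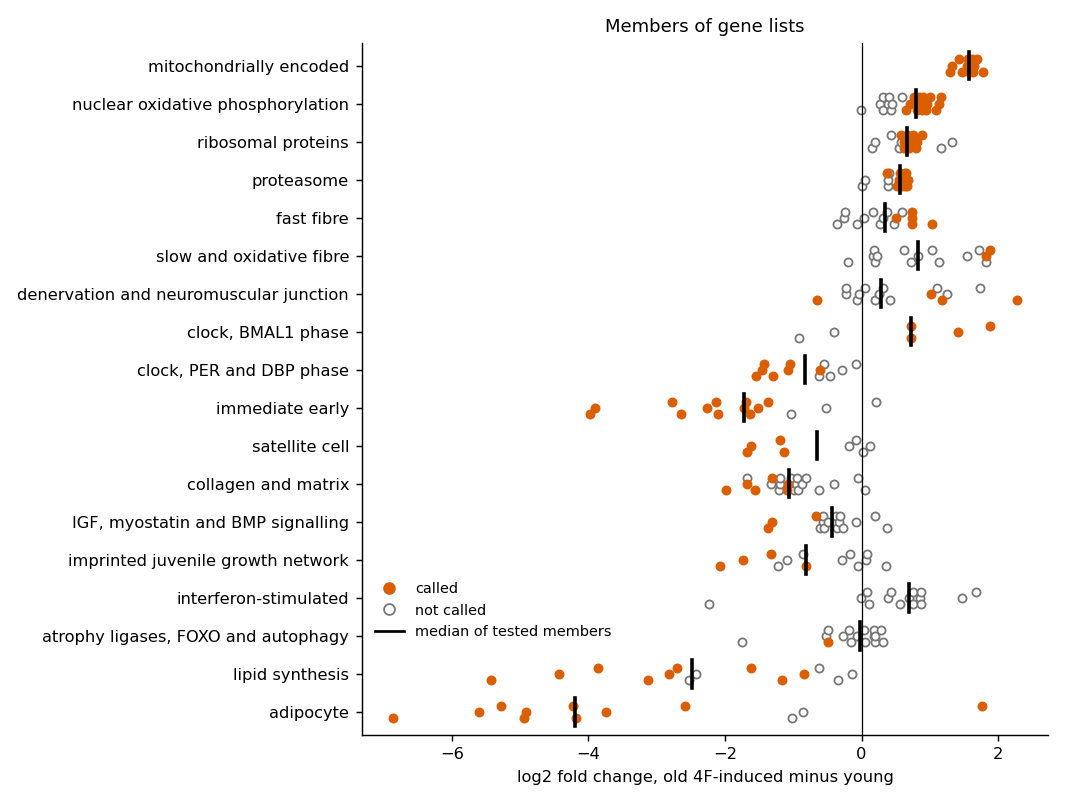
Log2 fold change of induced old minus young for each tested member of 18 gene lists, filled where the gene was called, with a bar at the list's median. The 13 mitochondrially encoded genes all lie right of 0, the called immediate early and lipid synthesis genes lie to the left, and members of the interferon list are open, not called, on either side.

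Among fibre type genes, the called members were all higher. Of 16 fast fibre genes 5 were called higher and 0 lower (median 0.34). By library total the sum of the list overlapped, at 147000 to 196000 CPM in treated and 166000 to 200000 CPM in young muscle. Myh1, the gene of IIX myosin, was at 4002, 6377 and 8168 CPM in treated and 1882 to 3808 CPM in young muscle (1.03 ± 0.30 SE, adjusted p = 0.0396). Tnni2, Tnnc2, Mylpf and Myl1 were the other 4, at log2 differences of 0.50 to 0.74. Myh4, the gene of IIB myosin, was not called (-0.26, 95% interval -0.76 to 0.24). By library total, without TMM, Myh4 lay below every young library, at 19900 to 30000 against 33800 to 38100 CPM. So did Atp2a1, at 18500 to 25100 against 29200 to 40400 CPM, whereas Tnni2 stayed above, at 9670 to 11000 against 5720 to 8220 CPM. The other called fast fibre genes, Myh1, Tnnc2, Mylpf and Myl1, overlapped young muscle on that scale. Of 15 slow and oxidative genes 2 were called higher, where 9.74% of all tested genes were. Casq2, the slow-fibre calcium store protein, was at 101.3, 111 and 126 CPM in treated, 73.2 to 131 CPM in untreated old and 18.3 to 39.7 CPM in young muscle (1.89 ± 0.23, adjusted p = 0.00626), and Mb, myoglobin, at 4395 to 9871 against 1425 to 3319 CPM. The type I genes varied within the groups. Myh7, the slow heavy chain, was at 2.44, 7.06 and 324 CPM in treated and 0.691, 40.9, 2.97 and 9.71 CPM in young muscle, with the female library far above the 2 males, and it was not called. Without old 4F-induced 3 the median of the 15 genes was -0.05 in place of 0.83, and without young 1 and 2 it was 2.38 with 8 called higher.

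Of 16 genes of denervation and the neuromuscular junction, 3 were called higher and 1 lower, where 9.74% and 9.28% of all tested genes were. The 3 encode subunits of the acetylcholine receptor. Chrnb1, a subunit of the acetylcholine receptor, was at 75.3, 71.0 and 60.5 CPM in treated, 41.0, 68.1 and 54.8 CPM in untreated old and 24.1 to 38.9 CPM in young muscle (1.17 ± 0.20 SE, adjusted p = 0.011). Chrna1 was at 41.2, 26.6 and 38.2 CPM against 13.9 to 24.0 CPM (1.02 ± 0.22, adjusted p = 0.0174). Chrng, the fetal subunit known to return after denervation, was at 2.27, 3.27 and 0.592 CPM in treated, 0.144 to 0.549 CPM in untreated old and 0.292 to 0.444 CPM in young muscle (2.28 ± 0.56, adjusted p = 0.0297), with the 2 treated males high and the female just above the young. Its difference from untreated old muscle was not called (adjusted p = 0.628). The subunits Chrnd (5.67, 7.26 and 5.08 against 3.16 to 6.21 CPM) and Chrne (21.6, 11.6 and 21.7 against 17.2 to 21.8 CPM) overlapped young muscle and were not called. Ache, the enzyme that clears acetylcholine, was lower at 27.9 to 39.5 against 48.5 to 55.7 CPM. Runx1 and Gadd45a, known to respond to denervation, were high in 1 treated library (16.7 and 52.4 CPM in old 4F-induced 2) and were not called. Untreated old 2 was likewise high for Runx1 and Gadd45a, at 14.8 and 85.8 CPM. Among 11 tested developmental and regeneration genes, Myh3, the embryonic myosin, and the fusion micropeptide Mymx were called higher and Pax7 lower. Myh3 was at 6.12, 7.93 and 26.3 CPM against 3.70 to 8.06 CPM in young muscle, so that its 2 treated males lay in the young range, and Mymx stayed at or under 1.05 CPM.

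Calcium handling and excitation had 2 of 14 genes called higher, Sln and Cacng1, and 3 lower, where 9.74% and 9.28% of all tested genes were. Ryr1, the release channel of the sarcoplasmic reticulum, was at 1693, 1593 and 1375 CPM in treated and 2490 to 3145 CPM in young muscle (-0.87 ± 0.16 SE, adjusted p = 0.0137). Scn4a, the sodium channel of the fibre membrane, was at 314 to 377 against 497 to 643 CPM, and Jph2, which joins the membrane systems, was also lower. Among 16 genes of atrophy and autophagy 1 was called, the ubiquitin ligase gene Cblb, at 12.3 to 16.6 against 19.1 to 22.9 CPM. The ligases of muscle wasting were not called: Fbxo32 (atrogin-1) differed from young by -0.07 (95% interval -0.58 to 0.44) and Trim63 (MuRF1), which was called higher in untreated old muscle, by 0.20 (-0.50 to 0.89).

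Part of the genes of the daily clock differed from young muscle. In this loop ARNTL (BMAL1) and CLOCK drive, through the E-box, the genes of their own repressors, and DBP, TEF and HLF act on the D-box. Of 12 genes of the PER and DBP phase 7 were called lower and 0 higher (median -0.83), and 4 of 6 of the BMAL1 phase were called higher. Arntl was at 19, 22.4 and 24.2 CPM in treated, 18.8 to 25.0 CPM in untreated old and 5.72 to 11.7 CPM in young muscle (1.41 ± 0.23 SE, adjusted p = 0.00979), and its partner genes Clock and Npas2 were also higher. The other 2 of the 6, Cry1 and Nfil3, lay below every young library, at 10.4 to 12.2 against 13.4 to 16.6 CPM and at 13.5 to 18.4 against 21.5 to 70.6 CPM, and were not called. Per2 was at 14.7, 14.8 and 8.34 CPM in treated and 26.2 to 42.6 CPM in young muscle (-1.55 ± 0.28, adjusted p = 0.0141). Hlf was at 15.6, 20.4 and 11 against 32.6 to 45.4 CPM (-1.43 ± 0.17, adjusted p = 0.0064). Neither overlapped. Per1, Per3, Dbp, Tef and Ciart made up the 7, and Nr1d2 was bounded within 1.5-fold (-0.09, 95% interval -0.39 to 0.22). The hour of collection is not in the labels, and its part in these differences was not tested. In untreated old muscle the counts were 7 of 12 lower and 3 of 6 higher. Leaving out old 4F-induced 3, 1 of the 12 and 0 of the 6 were called, with medians of -0.67 and 0.73.

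Promoter letters are shown for 4 of these lower genes because the E-box and D-box are the motifs named above. RefSeq windows (GRCm38.p6, 250 bases before to 50 after the annotated start) were at hand for 10 of the 12 PER-phase genes. These 10 genes had 12 windows. The E-box CACGTG lay in 5 of the 12, of the genes Per1, Tef, Ciart and Bhlhe41, where 7.15% of all 32851 windows hold it. It also lay in 1 of 8 windows of the BMAL1-phase genes, that of Cry1. The D-box, searched as TTATGTAA or TTACGTAA on both strands, lay in 1 of the 12, that of Per3, where 1.06% of all windows hold it. Each stretch below is read 5′ to 3′ on the gene's own strand, with the motif in capitals, and a match is letters only, not a site shown to be bound.
Per1 (E-box, chr11:69098723-69098848, plus strand): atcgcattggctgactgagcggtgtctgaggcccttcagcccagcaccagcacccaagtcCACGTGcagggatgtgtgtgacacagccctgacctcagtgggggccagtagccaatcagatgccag
Tef (E-box, chr15:81802486-81802611, plus strand): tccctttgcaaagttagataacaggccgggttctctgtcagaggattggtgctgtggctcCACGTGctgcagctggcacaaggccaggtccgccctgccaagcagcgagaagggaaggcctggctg
Ciart (E-box, chr3:95882207-95882404, minus strand): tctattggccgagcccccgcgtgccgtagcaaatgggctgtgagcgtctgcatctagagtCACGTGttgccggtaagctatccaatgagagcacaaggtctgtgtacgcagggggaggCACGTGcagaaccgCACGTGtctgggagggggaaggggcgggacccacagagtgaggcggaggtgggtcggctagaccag
Per3 (D-box, chr4:151044756-151044915, minus strand): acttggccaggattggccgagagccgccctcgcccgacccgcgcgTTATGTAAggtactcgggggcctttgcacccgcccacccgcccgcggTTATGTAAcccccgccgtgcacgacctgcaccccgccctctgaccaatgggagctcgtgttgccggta

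Immediate early genes, which answer growth signals and stress within minutes, were lower than in young muscle in 12 of 15 cases and higher in 0 (median -1.71). Fos was at 3.30, 4.70 and 3.55 CPM in treated and 25.2, 147, 46.3 and 24.6 CPM in young muscle (-3.97 ± 0.75 SE, adjusted p = 0.0173). Zfp36, which destabilises cytokine mRNAs, was at 11.3, 16.9 and 15.8 CPM in treated, 27.0 to 31.5 CPM in untreated old and 34.5 to 106 CPM in young muscle (-2.13 ± 0.30, adjusted p = 0.009). In both the treated libraries were close together and below all young ones. Nr4a1, an orphan nuclear receptor, was at 121, 157 and 126 CPM against 242 to 711 CPM. Egr1 was called lower too, but its young libraries ran from 4.91 to 185 CPM and took in the treated range. Untreated old muscle had 3 of the 15 called lower, and no member was called between the old groups. Without old 4F-induced 3, 0 of the 15 were called (median -1.86).

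Some matrix and satellite cell genes were called lower than in young muscle. Of 22 collagen and matrix genes 6 were called lower and 0 higher (median -1.06), and the median without old 4F-induced 3 was -1.43 with 0 called. Col1a1, the main chain of type I collagen, was at 35.4, 48.6 and 98.8 CPM in treated, 110, 21.7 and 33.5 CPM in untreated old and 178 to 321 CPM in young muscle (-1.99 ± 0.54 SE, adjusted p = 0.0402). Gsn, an actin-severing protein used as a marker of fibro-adipogenic cells, was at 763, 950 and 1231 CPM in treated, 526, 422 and 747 CPM in untreated old and 1903 to 3083 CPM in young muscle (-1.28 ± 0.15, adjusted p = 0.0064). Every treated library was above every untreated old one for Gsn, but that difference was not called (0.81 ± 0.16, adjusted p = 0.541). In all, 2 of 10 fibro-adipogenic markers were called lower. Of 8 satellite cell markers 4 were called lower and 0 higher. Pax7, the transcription factor of satellite cells, was at 3.30, 2.41 and 2.18 CPM in treated, 2.12, 1.43 and 1.14 CPM in untreated old and 5.53 to 5.96 CPM in young muscle (-1.20 ± 0.20, adjusted p = 0.011), with no overlap between any treated and any young library. Fgfr4, Chodl and Calcr were the other 3, whereas Myf5 and Cdh15 lay at 0.02 and 0.13 and were not called.

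Growth signalling genes were lower in part. Igf1, the local growth factor of muscle, was at 15.7, 13.2 and 24.6 CPM in treated, 6.65 to 16.2 CPM in untreated old and 33.0 to 85.5 CPM in young muscle (-1.36 ± 0.36 SE, adjusted p = 0.0353). Acvr2b, the receptor of myostatin, was at 6.36, 4.81 and 5.27 against 12.7 to 14.8 CPM (-1.31 ± 0.19, adjusted p = 0.009). Igfbp6 was the third lower of 16 genes in this list, and 0 were higher. Of 13 imprinted genes of juvenile growth 4 were called lower, Dlk1, Meg3, Plagl1 and Ndn, and 0 higher. Dlk1 was at 1.10, 0.276 and 0.941 CPM in treated and 1.94 to 5.33 CPM in young muscle. Igf2 was bounded at 0.08 (95% interval -0.25 to 0.41), as was Cdkn1c at -0.17 (-0.45 to 0.11).

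Fat and lipid genes included differences of over 5 on the log2 scale. Of 14 lipid synthesis genes 9 were called lower and 0 higher (median -2.48), and of 12 adipocyte markers 9 lower and 1 higher. Fasn, fatty acid synthase, was at 11.9, 15.7 and 51.8 CPM in treated, 16.6, 6.01 and 25.3 CPM in untreated old and 55.0, 1070, 4250 and 286 CPM in young muscle. Pck1, an enzyme of glyceride formation in fat cells, was at 0.241, 0.592 and 6.21 CPM against 23.8, 195, 755 and 134 CPM. The young libraries spread widely, with young 3 highest and young 1 nearest to the old ones. The fat cell markers moved with these genes: Plin1 was at 0.825, 1.14 and 12.7 CPM in treated and 22.1, 114, 523 and 95.5 CPM in young muscle. Without young 3 the lipid synthesis median was -1.59 with 7 called lower. Without old 4F-induced 3 it was -2.13, and 0 lipid synthesis and 0 adipocyte genes were called. Car3, a carbonic anhydrase that fast muscle fibres also express, was the adipocyte marker called higher, and it makes up most of that list's sum in old muscle. Adrb3, Ces1f, Lgals12, Klhdc7a, Tmem179 and Cyp2e1, all lower in treated muscle, followed the same order of young libraries, with young 3 highest and young 1 lowest. The part of fat tissue in the lipid synthesis result was not tested. Of 17 genes of fatty acid uptake and oxidation 1 was called higher, Hadhb, and 2 lower, Angptl4 and Pdk4, and of 14 cholesterol synthesis genes 1 was lower, Hmgcs1. Among 17 genes of glycolysis and glycogen 3 were higher, Gbe1, Pgk1 and Tpi1, and 0 lower, where 9.74% and 9.28% of all tested genes were.

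**Figure D5:**
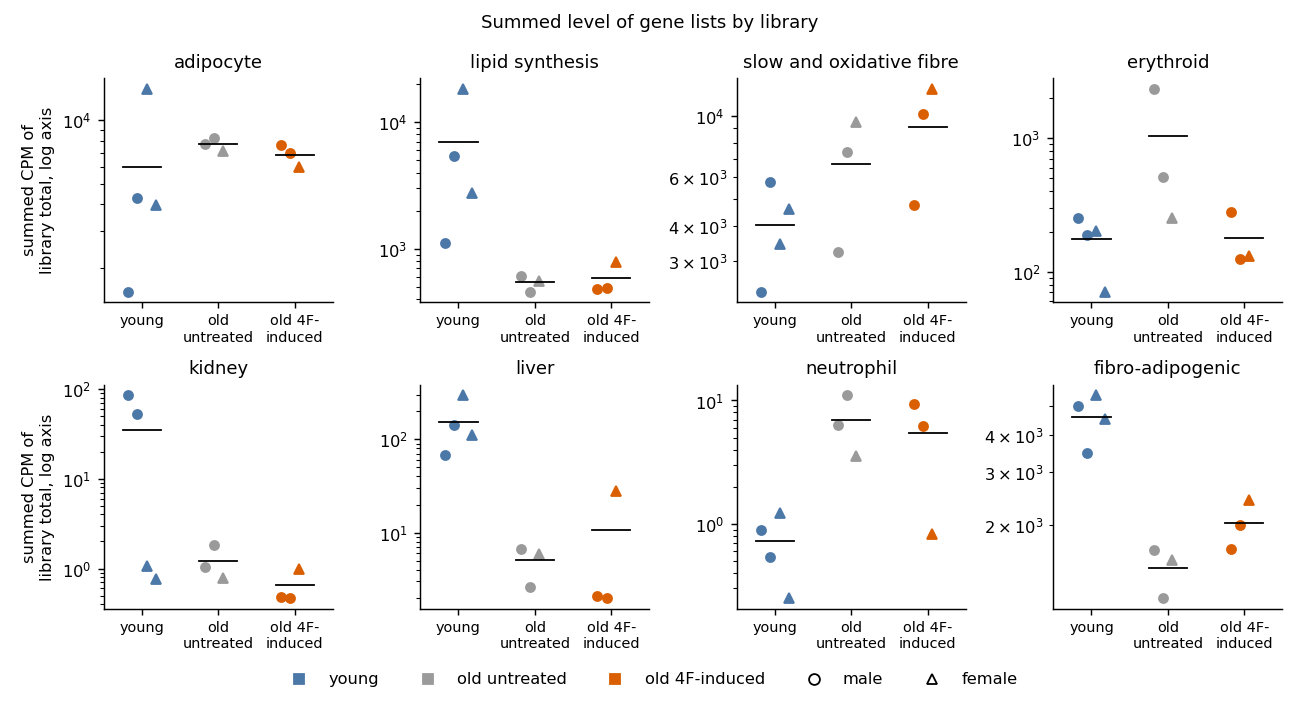
Summed level of 8 gene lists (CPM of the library total, log axis) in each young, untreated old and induced old library, with a bar at the group mean and triangles for females. Young 1 and 2 stand apart for kidney at 84.7 and 51.9 CPM, young 3 for the adipocyte and lipid synthesis lists, and the erythroid sum is highest in untreated old muscle.

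The 7 erythroid genes, all called higher in untreated old muscle, were called in 0 cases in treated muscle. Hbb-bs, a beta globin, was at 186, 87.2 and 91.2 CPM in treated, 1376, 350 and 186 CPM in untreated old and 42.4 to 133 CPM in young muscle. The untreated old sum was led by 1 library (2360 CPM, against 251 and 514 CPM in the others), the interval of each treated difference was wide (Hbb-bs, 0.20, -0.98 to 1.37), and the part of blood left in a sample was not tested. No member was called in either direction among 15 interferon-stimulated genes, 15 genes of MHC class I and II, 12 macrophage, 8 B and plasma cell, 11 endothelial, 9 Schwann cell and nerve and 10 cell cycle genes. The interferon median was 0.70 in treated and 1.47 in untreated old muscle, and 0 of the 15 genes were bounded within 1.5-fold of young. In the other lists without a call, 1 endothelial gene was bounded and 0 genes of the remaining lists were. For nearly all these genes the data therefore show neither a difference nor likeness. Irf7, which amplifies the interferon response, was at 24.3, 5.21 and 4.76 CPM in treated and 3.71 to 8.83 CPM in young muscle. S100a8 and S100a9, calcium-binding proteins of neutrophils, were called higher, with S100a9 at 5.88, 3.55 and 0.404 CPM in treated and 0.0522 to 0.479 CPM in young muscle, so that the female overlapped the young. The T cell chemokine gene Ccl5 was called higher at 0.434 to 0.585 against 0.0553 to 0.297 CPM. C3 alone of 13 complement genes was called, lower at 108 to 135 against 180 to 372 CPM.

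Lists of damage, senescence and stress held few called genes, where 9.74% of all tested genes were called higher and 9.28% lower. Of 14 tested p53 targets 1 was higher and 1 lower. Eda2r, a TNF receptor family member, was at 44.8, 108 and 78.7 CPM in treated, 53.9, 126 and 33.9 CPM in untreated old and 20.9 to 24.4 CPM in young muscle (1.75 ± 0.39 SE, adjusted p = 0.0192). Zmat3 was lower, at 7.36 to 8.63 against 10.8 to 13.8 CPM. Cdkn2a, the gene of p16 and ARF, was at or under 1.40 CPM in every library and was not called. Cdkn2c, the inhibitor p18, was at 5.57, 5.41 and 7.34 against 13.1 to 44.7 CPM and was called lower, 1 of 2 called lower among 11 genes of the INK4 and secretory list. Heat shock genes had 2 of 15 higher, Hspa8 and Hspb6. Of 12 glucocorticoid-responsive genes 3 were lower, Errfi1, Glul and Pdk4, where untreated old muscle had 2 higher. Among 14 genes of amino acid and polyamine use, Bcat2 was called lower.

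Markers of other tissues gave the following counts. The kidney list had 7 of 9 tested genes called lower, which rests on young 1 and 2, since without them 0 were called. Of 10 liver genes Cyp2e1 was called lower, at 0.631 to 10.01 CPM against 37.7 to 243 CPM, and the sum of that list was 1.96 to 27.8 CPM in treated and 68.3 to 297 CPM in young muscle. The brown adipocyte list had Cox7a1 and Cox8b called higher, complex IV subunits that muscle also expresses, with 0 lower. Trp63 was called higher of 2 tested skin genes, Myl4 of 4 cardiac genes and Scx of 6 tendon and cartilage genes. The other 5 tendon and cartilage genes had differences below 0, and were not called (list median -0.81). The 1 pancreas gene and 2 spleen and lung genes that could be tested were not called.

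Mss51, a gene of muscle mitochondria, falls outside the rule for named genes and was picked after its values were seen. It stood at 103, 445 and 446 CPM in treated, 21.5, 87.5 and 27.6 CPM in untreated old and 17.8 to 63.3 CPM in young muscle. The treated libraries were above all others, by 2.92 ± 0.62 SE against young (adjusted p = 0.0186) and by 2.97 ± 0.66 against untreated old, which was not called (adjusted p = 0.597).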

How the data were processed

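Bulk RNA of skeletal muscle was extracted on RNeasy columns and made into libraries with a stranded total RNA kit, per the labels' protocols. The deposited values are raw read counts per gene, with the build GRCm38 named in the submitters' processing notes. No source used here gives the aligner, the counter or how strand and shared reads were handled. Gene symbols and coordinates came from the GENCODE M21 annotation of that build and a table of gene names, which gave 52489 of 52636 identifiers a symbol. Genes with low counts were removed with filterByExpr, leaving 16851, and TMM scaling and the quasi-likelihood test of edgeR 4.0.16 (R 4.3.3) were run with group and sex over all 10 muscle libraries, with Benjamini-Hochberg adjustment over all tested genes. A gene was bounded where its 95% interval lay within 1.5-fold. Alternatives used DESeq2 1.42.0, other scalings and filters, and fewer libraries. Scripts were tested on simulated data. The members and gene lists were chosen with earlier results of these data known. Genes were named by rule: the 10 highest and 10 lowest core genes, up to 8 each way for the genes called with age and in treated muscle and for the bounded ones, and up to 4 called members of a list, with other members as values. Depth of 25.5 to 39.9 M counts limits genes under about 3 counts per library. Intervals cover the spread between libraries as modelled. Results of a few genes are not reported here.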

Additional observations from a re-analysis of the deposited data

Results flagged for a closer look

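Among 146 named genes, 8 had 1 young library far from the other 3, by Dixon's test at the 95% level. Chance alone marks about 5% of such groups. Young 3 was the distant library for 6 genes: Hoxc8 at 12.1 CPM (others 4.87 to 5.66), Ces1f at 41.6 CPM (2.79 to 8.32), Sesn3 at 41.7 CPM (25.0 to 27.8), mt-Atp8 at 0.837 CPM (1.6 to 1.7), Igf1 at 85.5 CPM (33.0 to 38.7) and Cdkn2c at 44.7 CPM (13.1 to 16.5). Young 1 was distant for Krt18 at 0.213 CPM (0.324 to 0.339) and Acvr2b at 14.8 CPM (12.7 to 13.0). The groups of 3 old libraries were too small for this check.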

How the results depend on the processing

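None of the 131 called named genes reversed direction under the alternatives run. The 16 bounded genes lie near 0, and the sign of some changed, such as Slc38a2 at -0.07, which was 0.05 without old 4F-induced 3. Of 2467 values of the 131 called named genes under the alternatives, 1793 kept their call, 673 lost it, and 103 of the 131 genes lost it without old 4F-induced 3. Leaving out 1 library gave 92 to 3895 called genes for treated old minus young (51 to 2012 higher, 41 to 1883 lower), 3465 to 5229 bounded, 59 to 2711 called with age and the same way, and 0 to 3 between the old groups. The lowest count of genes called with age and the same way came without old untreated 3, when untreated old minus young itself had 62 calls. With a test against a 1.5-fold change 88 were called (50 higher, 38 lower; 60 with age). With only the compared groups in the fit, 834 were called with age and the same way, and 0 between the old groups. Without young 1 and 2, 1181 were called (608 and 573), 1796 were bounded and 16 were called with age. Males alone gave 3 (0 and 3), with 2 called with age and 0 between the old groups. Chosen after seeing the data, a fit with no sex term and without old 4F-induced 3 gave 1194 (659 and 535). Between the old groups DESeq2 called 106 genes, and the fit with no low-count filter 56. A bound of 2-fold held 10107 genes. No paired analysis was possible because the labels give the groups no shared replicate numbers that pair animals. The 3 animals in each old group, 1 of them female, limit every call.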
